A study of Felis catus with 15 samples.

Results

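Immediate early transcription factor genes were followed in the domestic cat (Felis catus), in the corpus, which is the part of the epididymis between caput and cauda. The genes are FOS, FOSB, FOSL1, FOSL2, JUN, JUNB, EGR1, EGR3, NR4A1 and IER2. They were taken as a list of symbols and matched to the gene identifiers of a count table of 38995 genes. All 10 were present, and all 10 were among the 18038 genes that passed the filter on low counts. RNA-seq libraries came from 3 groups of 5: corpus explants (pieces of tissue kept in culture), corpus explants cultured with extracellular vesicles (EVs), and fresh corpus tissue. EVs are membrane particles that cells shed, and the series text names the caput, which lies upstream along the duct, as their source. The stated question was what caput EVs do to transcript levels in the explants, and fresh tissue served as control. The labels give no age of the animals, no dose of EVs, and no meaning for the codes D0 (fresh) and D3 (both cultures).

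Immediate early genes are switched on within minutes of a stimulus without new protein synthesis, through kinase cascades that act on factors such as SRF, the ELK proteins and CREB. Their RNAs are short-lived and their levels usually fall back soon after the stimulus. The FOS proteins pair with JUN proteins to form AP-1, which binds DNA through a basic leucine zipper. EGR1 and EGR3 are zinc finger factors, NR4A1 is an orphan nuclear receptor, and IER2 is a nuclear protein of the early response. In many cell types FOS and FOSB are induced fast and briefly, whereas FOSL1 and FOSL2, which lack the strong activation domain of FOS, appear later and persist longer.

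The identifiers in the table are 493935 for FOS, 101095060 for FOSB, 101101337 for FOSL1 and 101093515 for FOSL2. JUN is 101097261, JUNB is 101085606, EGR1 is 101088388, EGR3 is 101086390, NR4A1 is 101097902 and IER2 is 101094574. In a RefSeq table of assembly F.catus_Fca126_mat1.0, 8 of the 10 loci overlapped no other gene. EGR3 overlapped the long noncoding RNA LOC105260484, which had 0 to 22 counts per library. NR4A1 overlapped LOC109501581, also a long noncoding RNA, with 0 to 10 counts per library. The strand setting of the counting is not given, so reads of these overlapping pairs may not have been told apart.

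Total counts per library were 19308190 to 25454399 in culture, 17308832 to 27420218 in culture with EVs and 17751507 to 24841100 in fresh tissue. Libraries are named by group and replicate number, and levels are given as CPM, counts scaled to a common library size and composition. Several libraries stood apart. Culture 3 had 0.179% of its counts on mitochondrial genes, against 6.23% to 7.48% in the other 4 culture libraries. Fresh 4 and fresh 5 were the extremes of the fresh group for the early genes, as set out below. The labelled tissue was checked by its epithelial markers: 15 epididymal epithelium genes summed to 1190 to 3537 CPM in culture, 2302 to 3787 in culture with EVs and 31649 to 43572 in fresh tissue, with LCN8 at 0 in fresh tissue and in culture with EVs. In such bulk samples, fewer cells of a type and less RNA per cell cannot be told apart. Nothing in the labels says that replicates came from separate animals, so p-values reflect spread among the samples, which may be technical.

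Cultured and fresh tissue differed in 8 of the 10 early genes. In culture against fresh tissue, FOSL1 and FOSL2 rose, FOS, FOSB, JUN, EGR1, EGR3 and NR4A1 fell, and JUNB and IER2 did not pass the test. Culture with EVs gave the same counts, with 2 genes higher, 6 lower and 2 not passing. A call is an adjusted p under 0.05 in edgeR's quasi-likelihood test with Benjamini-Hochberg adjustment over the 18038 genes, and every adjusted p below is from that test. Culture changed much of the transcriptome: between culture and fresh tissue 54.3% of all tested genes were called, 28.7% higher in culture and 25.6% lower. Between culture with EVs and fresh tissue the shares were 52.9% in all, 27.4% higher and 25.5% lower. The median log2 fold change of the 10 genes was -1.73 in culture against fresh tissue, where that of all tested genes was 0.04. With EVs it was -2.05 for the 10 genes and 0.01 for all tested genes. The 2 cultured groups share the same fresh libraries, so these are not 2 independent measurements.

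**Figure D1:**
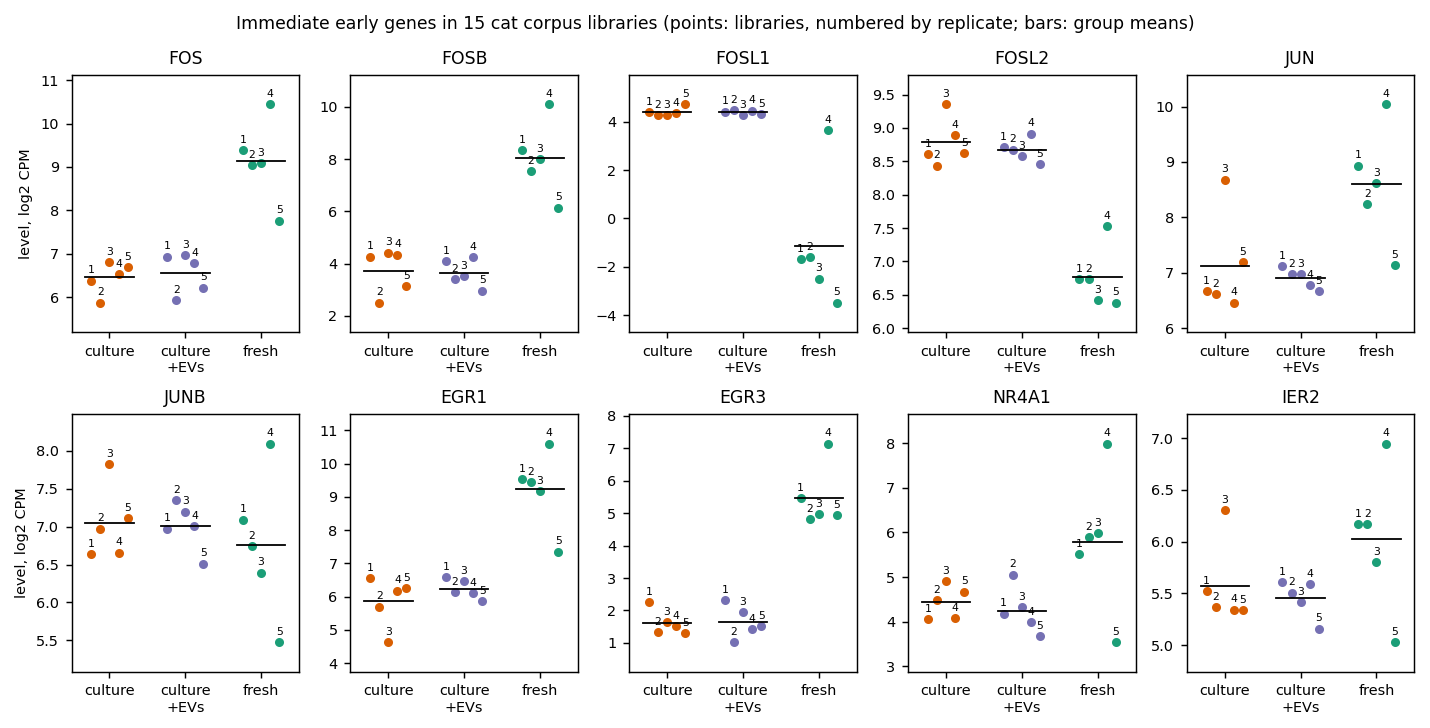
Level of each of the 10 early genes (log2 CPM, vertical axis) in every library of culture, culture with EVs and fresh tissue, each dot numbered by replicate, 5 per group. FOS, FOSB, EGR1 and EGR3 lie lower in all cultured libraries than in any fresh one, FOSL1 and FOSL2 lie higher, and fresh 4 is the top fresh library in all 10 panels.

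FOS, the founding AP-1 subunit, was lower in every cultured library than in any fresh one. It had 83.2, 58.6, 112, 92.8 and 103 CPM in culture 1 to 5, and 122, 60.9, 125, 110 and 74.4 CPM in culture with EVs 1 to 5. Fresh 1 to 5 had 671, 526, 541, 1393 and 217 CPM. The lowest fresh library, fresh 5, was still above all 10 cultured libraries, and fresh 4 was far above the other fresh ones. The log2 fold change was -2.90 ± 0.39 (SE; adjusted p = 1.92e-05) in culture against fresh tissue, which is 7.44-fold lower. With EVs against fresh tissue it was -2.76 ± 0.39 (adjusted p = 2.87e-05).

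FOSB, the closest relative of FOS and also a strong activator as a full-length protein, fell as well. Culture 1 to 5 had 19.1, 5.58, 21.3, 20.2 and 8.64 CPM, and culture with EVs had a lowest level of 7.72, a median of 11.4 and a highest level of 18.8 CPM. The fresh libraries 1 to 5 had 323, 186, 259, 1100 and 70.7 CPM. Neither cultured group overlapped fresh tissue, and fresh 4 was again the highest and fresh 5 the lowest. The fall was 25.8-fold in culture (log2 fold change -4.69 ± 0.66, adjusted p = 2.60e-05) and 29.6-fold with EVs (-4.89 ± 0.66, adjusted p = 1.97e-05). Without fresh 4 the 2 log2 fold changes were -3.80 and -4.00, and both remained called.

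FOSL1, also called Fra-1, went the other way. Culture 1 to 5 had 21.0, 19.3, 19.4, 20.3 and 26.3 CPM, and culture with EVs 1 to 5 had 21.3, 22.2, 19.2, 21.9 and 19.8 CPM. In fresh 1 to 5 it had 0.219, 0.241, 0.0880, 12.4 and 0 CPM. Cultured libraries lay in a narrow band, whereas 4 of the 5 fresh libraries had next to no FOSL1 RNA and fresh 4 stood between them and the cultured libraries. In raw counts, fresh 4 held 215 of the 228 FOSL1 counts of the fresh group, and the other 4 fresh libraries held 0 to 6. These 4 lay under the filter's minimum count of 10, so FOSL1 passed the filter through the cultured libraries. A gene kept in this way is bound to lie higher in culture, so its call and separation are a description. The 0 counts of fresh 5 allow a level of up to 0.155 CPM (3 counts, counting error only). The fitted log2 fold change was 3.07 ± 1.02 (adjusted p = 0.0192) in culture and 3.05 ± 1.02 (adjusted p = 0.0205) with EVs. Its size rests on fresh 4: without that library it was 7.17 ± 0.40 in culture (adjusted p = 2.79e-08) and 7.14 ± 0.40 with EVs (adjusted p = 2.87e-08). The ratio of the group medians was 92.4 for culture over fresh tissue and 96.9 for culture with EVs over fresh tissue. With the replicate number as a block, the log2 fold change with EVs was 4.70 ± 1.07 (adjusted p = 0.00273).

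FOSL2, also called Fra-2, rose in both cultures. It had 390, 346, 655, 476 and 395 CPM in culture 1 to 5, and 419, 409, 383, 483 and 351 CPM in culture with EVs 1 to 5. The level was lower in fresh 1 to 5, at 107, 106, 85.4, 185 and 83.3 CPM. All cultured libraries were above all fresh ones, with culture 3 the highest in culture and fresh 4 the highest in fresh tissue. This rise in log2 terms was 2.00 ± 0.23 (adjusted p = 3.80e-06) in culture and 1.85 ± 0.23 (adjusted p = 7.62e-06) with EVs. FOSL1 and FOSL2 were the 2 early genes whose cultured CPM ranges lay wholly above the fresh range. For FOSL1 this is a description only, given how it passed the filter. Such a separation was found for 20.2% of all tested genes in culture and for 25.3% with EVs.

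These opposite movements changed the make-up of the FOS family counts. FOSL2 held 74.1% to 81.1% of the counts of the 4 FOS family genes in culture, 71.1% to 81.4% in culture with EVs and 6.88% to 22.4% in fresh tissue. FOS held 13.6% to 19.3% in culture, 12.1% to 23.3% with EVs and 51.8% to 64.2% in fresh tissue. FOSB held 1.30% to 3.73% in culture, 1.71% to 2.96% with EVs and 19.0% to 40.9% in fresh tissue. FOSL1 held 2.40% to 4.93% in culture, 3.45% to 4.41% with EVs and 0% to 0.461% in fresh tissue. The shares are not corrected for transcript length, so they are read between libraries and not between genes. The log2 ratio of FOSL1 and FOSL2 counts to FOS and FOSB counts averaged 2.18 ± 0.24 in culture, 1.99 ± 0.42 in culture with EVs and -2.93 ± 0.71 in fresh tissue (SD, n = 5 each). It ranged from 1.92 to 2.51 in culture, from 1.56 to 2.60 with EVs and from -3.66 to -1.79 in fresh tissue, so the cultured libraries did not overlap the fresh ones. This is a description of genes picked for the report, and no test was run on it.

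**Figure D2:**
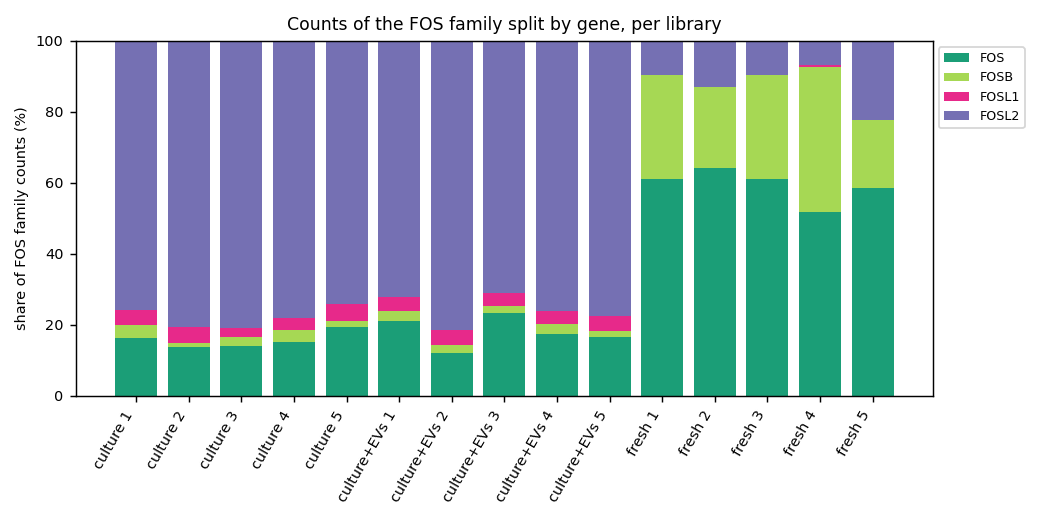
Share of the summed FOS, FOSB, FOSL1 and FOSL2 counts held by each gene (percent, vertical axis) in each of the 15 libraries, as stacked bars. FOSL2 holds over 71% in every cultured library, whereas FOS and FOSB together hold most of the counts in every fresh library.

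The JUN family moved less evenly. JUN, the main partner of FOS in AP-1, had 102, 98.5, 411, 88.2 and 147 CPM in culture 1 to 5, and 140, 126, 126, 109 and 102 CPM in culture with EVs 1 to 5. JUN in fresh 1 to 5 had 489, 302, 393, 1053 and 141 CPM. Culture 3 was above 3 of the 5 fresh libraries, and fresh 5 was below 2 culture libraries, so culture and fresh tissue overlapped. Culture with EVs lay below fresh tissue without overlap, but by a narrow margin at fresh 5. The log2 fold change was -1.49 ± 0.49 (adjusted p = 0.0172) in culture and -1.98 ± 0.49 (adjusted p = 0.00335) with EVs. The call in culture depended on fresh 4: without it the value was -0.97 (adjusted p = 0.0756), whereas without culture 3 it was -2.12 and without both it was -1.60 (adjusted p = 0.000519).

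JUNB, a JUN relative that can damp AP-1 activity, did not pass the test in either culture. It had 99.7, 126, 227, 101 and 139 CPM in culture 1 to 5, with 91.3 to 163 CPM in culture with EVs. Its fresh levels 1 to 5 were 137, 107, 84.0, 274 and 44.5 CPM. The fresh range contained all cultured libraries of both groups. Its log2 fold change was 0.10 ± 0.37 (adjusted p = 0.838) in culture, with a 95% interval of -0.71 to 0.91, and 0.02 ± 0.37 (adjusted p = 0.969) with EVs. This width does not show that JUNB was the same in cultured and fresh tissue.

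EGR1, a growth-factor-induced zinc finger activator, fell in both cultures. It had 94.3, 51.8, 24.8, 72.3 and 76.2 CPM in culture 1 to 5, and 96.6, 69.9, 87.8, 68.2 and 58.6 CPM in culture with EVs 1 to 5. Fresh 1 to 5 had 747, 697, 575, 1558 and 164 CPM. No cultured library reached the fresh range, culture 3 was the lowest of all 15, and fresh 5 was well below the other fresh libraries. The log2 fold change was -3.55 ± 0.48 (adjusted p = 1.88e-05) in culture and -3.29 ± 0.47 (adjusted p = 3.42e-05) with EVs. Without both fresh 4 and culture 3 it was -2.89 in culture.

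EGR3, an EGR1 relative that EGR1-inducing stimuli also switch on, fell too. It had 4.73, 2.42, 3.01, 2.76 and 2.37 CPM in culture 1 to 5, and 4.92, 1.95, 3.80, 2.60 and 2.76 CPM in culture with EVs 1 to 5. Levels in fresh 1 to 5 were 44.2, 27.9, 31.6, 142 and 30.4 CPM. The cultured libraries were all far below the fresh ones, and fresh 5 was not the lowest here, since fresh 2 was slightly lower. EGR3 had a log2 fold change of -4.17 ± 0.48 (adjusted p = 3.83e-06) in culture and -4.10 ± 0.47 (adjusted p = 4.24e-06) with EVs. Without fresh 4 the values were -3.45 in culture and -3.38 with EVs.

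FOS, FOSB, EGR1 and EGR3 were the early genes whose culture range lay wholly below the fresh range, a separation that 20.4% of all tested genes showed. With EVs, JUN made 5, where 24% of all tested genes showed it.

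NR4A1, an orphan nuclear receptor of the early response, fell on average but overlapped fresh tissue. It had 16.5, 22.2, 30.0, 16.9 and 25.4 CPM in culture 1 to 5, and 18.0, 33.2, 19.9, 15.8 and 12.7 CPM in culture with EVs 1 to 5. In the fresh group, libraries 1 to 5 had 45.5, 59.1, 63.5, 254 and 11.6 CPM. Fresh 1 to 4 were above all cultured ones, and fresh 5 was below all of them. Culture gave a log2 fold change of -1.97 ± 0.57 (adjusted p = 0.00827) and culture with EVs gave -2.12 ± 0.57 (adjusted p = 0.00546). Without fresh 4 it was -1.02 (adjusted p = 0.0437) in culture and -1.17 (adjusted p = 0.0236) with EVs.

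IER2 had 40.5 to 78.8 CPM in culture, 35.7 to 48.8 CPM in culture with EVs and 32.6 to 123 CPM in fresh tissue. Its ranges overlapped, with fresh 5 below every cultured library and culture 3 above the other culture libraries. The log2 fold change was -0.52 ± 0.28 (adjusted p = 0.125) in culture and -0.69 ± 0.28 (adjusted p = 0.0506) with EVs, so it passed the threshold in neither. Without fresh 5 it was called in both, at -0.70 in culture (adjusted p = 0.0253) and -0.87 with EVs (adjusted p = 0.00847). Without culture 3 it was also called in both, at -0.75 in culture (adjusted p = 0.0259) and -0.68 with EVs (adjusted p = 0.0284), and without fresh 3 it was called with EVs (adjusted p = 0.0472). The value with EVs hardly moved without culture 3, a setting in which the genes called in all with EVs went from 9549 to 11658.

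**Figure D3:**
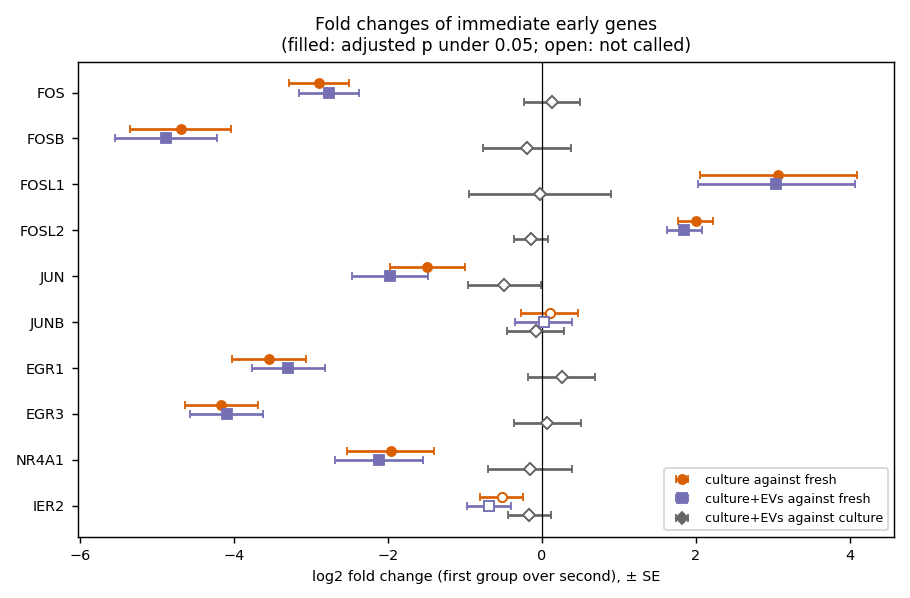
Log2 fold change (horizontal axis, bars are ± 1 SE of the edgeR fit) of the 10 early genes in culture against fresh tissue, culture with EVs against fresh tissue, and culture with EVs against culture; filled points passed an adjusted p under 0.05. FOSL1 and FOSL2 lie above 0 and FOS, FOSB, EGR1 and EGR3 below -2 in both fresh comparisons, while all 10 lie between -0.49 and 0.25 in culture with EVs against culture.

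Addition of EVs changed none of the 10 genes detectably. In culture with EVs against culture, 0 of the 10 were called and all adjusted p-values were 1 by edgeR's quasi-likelihood test. Of all tested genes 0% were called, DESeq2 called 0 genes as well, and 183 genes had an unadjusted p under 0.05, of which 0 were early genes. The log2 fold changes ran from -0.49 ± 0.48 for JUN, the smallest p at 0.323 (lower in 2 of 5 same-numbered pairs), to 0.25 ± 0.43 for EGR1. All 10 genes overlapped between the groups. Among all tested genes, 0.0499% lay wholly higher and 0.0333% wholly lower with EVs.

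The precision differed between the early genes. FOSL2 was the tightest, at -0.15 ± 0.22 with a 95% interval of -0.63 to 0.33, and IER2 followed at -0.16 ± 0.28 with an interval of -0.77 to 0.45. For FOS the value was 0.13 ± 0.37 with an interval of -0.66 to 0.93, and for EGR3 it was 0.07 ± 0.44 with an interval of -0.88 to 1.02. EGR1, at 0.25 ± 0.43, had an interval of -0.69 to 1.20. Intervals reached below -1 for FOSB, FOSL1, JUN and NR4A1 and above 1 for FOSB, FOSL1, EGR1, EGR3 and NR4A1, so changes of over 2-fold with EVs in those directions are within the error. FOSL1 was at -0.03 ± 0.93 in the fit of all libraries and at -0.03 ± 0.25 without fresh 4, since all groups share 1 estimate of the spread. The JUN value turned on culture 3: without it the log2 fold change was 0.15 ± 0.40.

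The early genes differed among fresh libraries far more than most genes did. The SD of log2 CPM over the 5 fresh libraries had a median of 1.01 over the 10 early genes and 0.29 over all tested genes. In culture the medians were 0.40 for the early genes and 0.54 for all genes, and in culture with EVs 0.30 and 0.29. Fresh 4 was the highest fresh library for 10 of the 10 early genes, as it was for 21.8% of all genes. Fresh 5 was the lowest for 9 of the 10, as it was for 19.7% of all genes. Without fresh 4 the median SD was 0.75 for the early genes and 0.27 for all genes, and without fresh 4 and fresh 5 it was 0.30 and 0.24. These libraries were picked as the extremes for the same early genes, so leaving them out has to lower the early gene SD more. The drop is thus a description.

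From log2 CPM (prior count 2), fresh 4 exceeded the median of the other fresh libraries 53.5-fold for FOSL1, 5.00-fold for FOSB, 4.89-fold for NR4A1 and 4.56-fold for EGR3. The excess was 3.05-fold for JUN, 2.89-fold for JUNB, 2.61-fold for FOS, 2.46-fold for EGR1, 1.95-fold for IER2 and 1.94-fold for FOSL2, where the median over all genes was 0.998. Genes that were lower in culture (FOS, FOSB, EGR1, EGR3) and genes that were higher there (FOSL1, FOSL2) were thus high together in fresh 4. Fresh 5 lay below the median of the other fresh libraries by 5.25-fold for NR4A1, 4.41-fold for EGR1, 4.09-fold for FOSB, 3.58-fold for FOSL1 and 3.11-fold for JUN. The deficit was 2.77-fold for FOS, 2.71-fold for JUNB, 2.20-fold for IER2, 1.28-fold for FOSL2 and 1.23-fold for EGR3. Among the same-numbered cultures, culture 4 was the highest of its group for 0 of the 10 early genes (15.4% of all genes) and culture with EVs 4 for 2 (25% of all genes). Culture 5 was the lowest of its group for 2 (15.8% of all genes), while culture with EVs 5 was the lowest for 7 (19.4% of all genes).

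**Figure D4:**
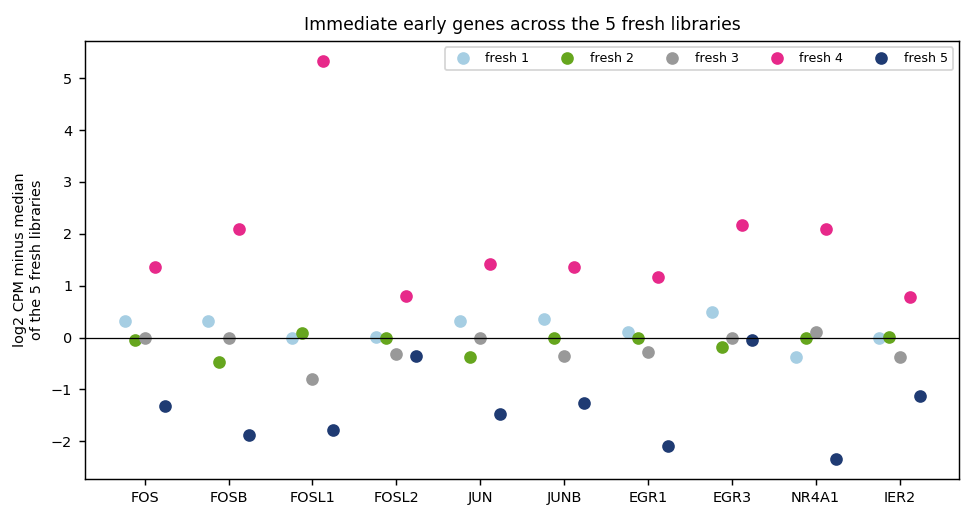
Level of each early gene in fresh 1 to 5 as log2 CPM minus the median of the 5 fresh libraries (vertical axis), 1 point per gene and library. Fresh 4 lies above 0 for all 10 genes and fresh 5 lies lowest for 9 of them, EGR3 being the exception.

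Genes of the wider early response were extreme in the same fresh libraries. Of 29 other early response genes, fresh 4 was the highest for 26 and fresh 5 the lowest for 20. Their median log2 CPM was 1.74 above the other fresh libraries in fresh 4, led by MAFF at 3.94, the stress-induced factor ATF3 at 3.60 and CSRNP1 at 3.16. In fresh 5 the median difference was -0.69. Fresh 4 and fresh 5 had similar mitochondrial shares, 11.2% and 11.4%, at the top of the fresh range of 8.69% to 11.4%. Fresh 4 had the lowest summed fresh levels of fibroblast and endothelial markers, at 609 and 267 CPM. Its smooth muscle sum of 787 CPM was nearly that of fresh 5, at 788 CPM. The epithelial, basal, macrophage, lymphocyte and neutrophil sums of fresh 4 lay inside the fresh ranges. Fresh 5 had the lowest basal sum, 621 CPM, and the highest lymphocyte and neutrophil sums, 32.5 and 2866 CPM. The part of any of these in the spread was not tested.

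Culture 3, the library with few mitochondrial counts, was the highest culture library for 7 of the 10 early genes, as it was for 32.5% of all genes. It exceeded the median of the other cultures 4.09-fold for JUN, 2.01-fold for JUNB, 1.93-fold for IER2 and 1.67-fold for FOSL2, and was 2.99-fold lower for EGR1. Whether its make-up bears on these values was not tested. With fresh 4 and culture 3 both left out, 8 of the 10 early genes were called in each comparison with fresh tissue, again 2 higher and 6 lower.

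**Figure D5:**
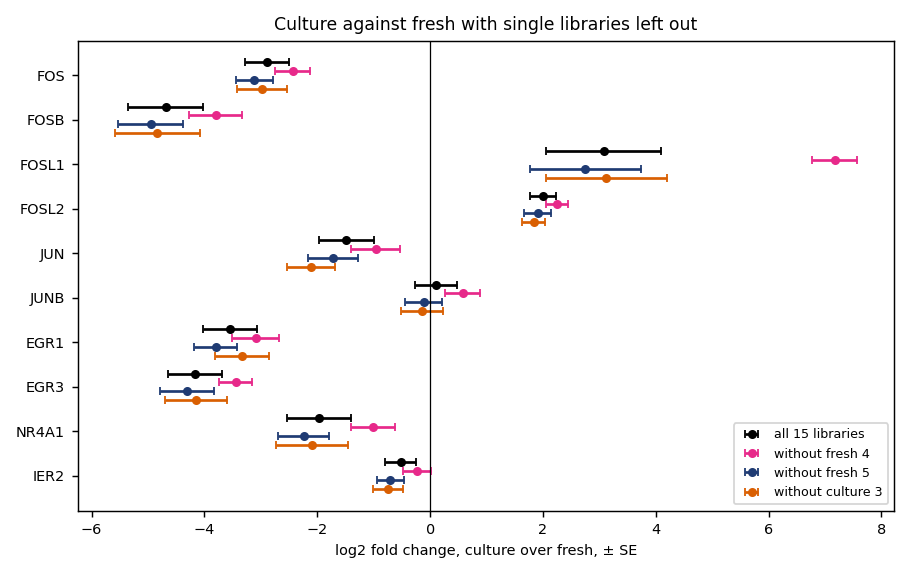
Log2 fold change of each early gene in culture against fresh tissue (horizontal axis, bars are ± 1 SE) with all libraries, without fresh 4, without fresh 5 and without culture 3. FOSL1 stands at 7.17 without fresh 4 and at 3.07 with all libraries, and the other 9 genes move by less than 1 on the log2 scale.

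Of the genes of other bZIP proteins that pair with FOS or JUN proteins, 40% were called in each culture, beside 54.3% of all tested genes in culture and 52.9% with EVs. Of 11 listed, 10 were tested (ATF7 was not in the table); 4 rose and 0 fell in culture, with a median log2 fold change of 0.89, and 3 rose and 1 fell with EVs, with a median of 0.67. With 1 library left out at a time, 0 to 2 of them fell in either comparison. JDP2, which dimerises with JUN and represses AP-1, rose by 2.41 ± 0.29 in culture (adjusted p = 6.13e-06) and by 2.05 ± 0.29 with EVs (adjusted p = 2.62e-05). MAFG, a small MAF protein, rose by 1.11 ± 0.20 in culture (adjusted p = 0.000211). BATF3, which pairs with JUN in immune cells, rose by 3.64 ± 0.76 in culture (adjusted p = 0.000816) at a low level, and without culture 3 by 3.04. JUND, the JUN family member with the steadiest expression in most cells, fell by 0.82 ± 0.32 with EVs (adjusted p = 0.0440), a call lost without any 1 of 8 libraries, with the largest move without fresh 4, to -0.36 (adjusted p = 0.218).

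Among 6 relatives and corepressors of EGR and NR4A factors, 5 were tested (EGR4 was too low). Of these, 3 rose and 0 fell in culture, with a median of 0.41, and 3 rose and 0 fell with EVs, with a median of 0.45. In each comparison 60% were called, beside 54.3% of all tested genes in culture and 52.9% with EVs. Without culture with EVs 2, 1 rose with EVs; 1 fell in both comparisons without fresh 5, and in culture also without culture 5 or fresh 1. The risers were NAB1 and NAB2, which bind and repress EGR proteins, and NR4A3. NAB2 rose by 1.04 ± 0.24 in culture (adjusted p = 0.00187) and by 0.68 ± 0.24 with EVs (adjusted p = 0.0244), a call lost without fresh 1 or culture with EVs 2. NR4A3, a nuclear receptor of the NR4A1 family, rose by 1.95 ± 0.67 in culture (adjusted p = 0.0232) and by 2.15 ± 0.68 with EVs (adjusted p = 0.0146), where NR4A1 fell. Its call in culture was lost without culture 2 or without fresh 1, 2 or 3, and its call with EVs was lost without culture with EVs 2, while without fresh 4 its values were 3.16 and 3.36. NR4A2 had -1.34 ± 0.56 in culture (adjusted p = 0.0547) and EGR2 had -0.51 ± 0.31 (adjusted p = 0.170), and neither passed.

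Other early response genes were called in both directions. Of 29, all tested, 14 rose and 5 fell in culture, with a median of 0.81, and 13 rose and 6 fell with EVs, with a median of 0.87. In each comparison 65.5% were called, beside 54.3% of all tested genes in culture and 52.9% with EVs. MYC, a growth regulator, rose by 1.76 ± 0.26 in culture (adjusted p = 4.71e-05), ZFP36L1 by 1.40 ± 0.22 (adjusted p = 6.72e-05), and PTGS2, the inducible prostaglandin synthase, by 4.39 ± 0.71 (adjusted p = 9.58e-05). ZFP36, which speeds decay of AU-rich RNAs, fell by 1.87 ± 0.40 (adjusted p = 0.00103). DUSP1, a phosphatase of MAP kinases, fell by 1.42 ± 0.38 (adjusted p = 0.00546), and BTG2, an antiproliferative gene, by 1.37 ± 0.38 (adjusted p = 0.00624). Without fresh 4, BTG2 had -0.70 in culture and -0.57 with EVs, both called, and DUSP1 lost its call with EVs (-0.63, adjusted p = 0.0698). Without fresh 4 the list stood at 17 higher and 3 lower in both comparisons, and without fresh 5 at 11 higher and 6 lower in culture and 10 higher and 8 lower with EVs. Without culture 1 or culture 2, 3 were lower in culture. PTGS2 without fresh 4 rose by 5.15 in culture.

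Of the kinases and factors that act upstream of these genes, 58.8% were called in culture, where 54.3% of all tested genes were, and 52.9% with EVs, the share of all tested genes. Of 17 tested, 8 rose and 2 fell in culture, with a median of 0.33, and 7 rose and 2 fell with EVs, with a median of 0.47. RPS6KA1, a kinase downstream of ERK, rose by 2.15 ± 0.27 in culture (adjusted p = 8.32e-06), MAPK14, which encodes p38 alpha, by 1.00 ± 0.13 (adjusted p = 1.33e-05), and MAPK3, which encodes ERK1, by 1.34 ± 0.18 (adjusted p = 1.48e-05). MAPK8, which encodes the JUN kinase JNK1, fell by 1.58 ± 0.28 (adjusted p = 0.000192), and ELK1, an ERK-activated partner of SRF, fell by 0.41 ± 0.13 (adjusted p = 0.0128). SRF had 0.27 ± 0.22 (adjusted p = 0.314) and did not pass.

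Feedback inhibitors of the MAP kinase pathway, which ERK signalling induces, rose in most cases. Of 15 tested, 10 rose and 1 fell in culture, with a median of 1.45, and 11 rose and 1 fell with EVs, with a median of 1.57. The share called was 73.3% in culture and 80% with EVs, beside 54.3% and 52.9% of all tested genes. DUSP7, an ERK phosphatase, rose by 3.70 ± 0.23 in culture (adjusted p = 1.11e-08), DUSP4 by 4.84 ± 0.48 (adjusted p = 8.75e-07) and SPRED3, an inhibitor of RAS to RAF signalling, by 2.49 ± 0.24 (adjusted p = 8.13e-07). SPRY4, a Sprouty inhibitor, rose by 2.77 ± 0.26 with EVs (adjusted p = 4.76e-07). The gene that fell was DUSP1, whose call with EVs was lost without fresh 4 and which is also counted among the other early response genes.

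Genes known from textbooks as AP-1 targets were higher in culture. Of 20 listed, 19 were in the table (MMP3 was not) and 18 were tested. All 18 rose and 0 fell in each culture, with a median of 4.94 in culture and 5.05 with EVs. That is 100% called higher in each, beside 28.7% of all tested genes in culture and 27.4% with EVs. MMP1 and MMP10 were at 0 in all fresh libraries, and MMP10 was not tested; a gene that passes the filter through the cultured libraries alone has to differ, so the count is a description. CD44, the hyaluronan receptor, had medians of 498 CPM in culture and 19.4 CPM in fresh tissue and rose by 4.68 ± 0.23 (adjusted p = 3.44e-09). SPP1, which encodes osteopontin, rose by 7.22 ± 0.41 (adjusted p = 8.09e-09). None of the genes of these 6 lists was called in culture with EVs against culture. The same holds for the 10 early genes, as it does for all 18038 tested genes.

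Cell type markers moved between the groups beside the early genes. Of 14 tested epididymal epithelium markers, 0 rose in either culture, 13 fell in culture and 12 with EVs. That is 92.9% and 85.7% lower, beside 25.6% and 25.5% of all tested genes. All 8 tested basal cell markers rose in both, with sums of 2602 to 7288 CPM in culture, 2315 to 6040 with EVs and 621 to 791 in fresh tissue, and none at 0. Neutrophil markers had 5 of 6 tested higher and 1 lower in culture, and 4 higher and 1 lower with EVs, with sums of 4912 to 11464, 5196 to 12179 and 1335 to 2866 CPM in culture, culture with EVs and fresh tissue. MMP8 was at 0 in culture, CSF3R in culture with EVs and S100A9 in fresh tissue. Of all tested genes, 28.7% were called higher in culture and 27.4% with EVs.

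The share of stromal and vascular markers called in each culture was 30% for smooth muscle and 50% for fibroblast and endothelial lists. Among lymphocyte markers it was 50% in both, and among macrophage markers 33.3% in culture and 44.4% with EVs. For calls in either direction, all lay near or below the shares of all tested genes, 54.3% in culture and 52.9% with EVs. By direction, 28.7% of all tested genes were higher and 25.6% lower in culture, and 27.4% and 25.5% with EVs. In each culture, 50% of endothelial markers were higher and 0% lower, and 0% of lymphocyte markers were higher and 50% lower. Of fibroblast markers 40% were higher and 10% lower, and of smooth muscle markers 30% and 0%. Of macrophage markers 33.3% were higher in each, with 0% lower in culture and 11.1% with EVs. In both cultures 3 of 10 smooth muscle markers rose and 0 fell, 4 of 10 fibroblast markers rose and 1 fell, and 5 of 10 endothelial markers rose and 0 fell. With EVs, 2 fibroblast markers rose without fresh 3, fresh 4, fresh 5 or culture with EVs 2. The number of fibroblast markers that fell was 2 in culture without culture 2 and 2 with EVs without culture with EVs 2. Without fresh 2, 3 endothelial markers rose in culture, and without culture with EVs 2, 2 smooth muscle markers rose and 1 fell with EVs. Smooth muscle sums were 1424 to 5068 CPM in culture, 779.6 to 4820 with EVs and 787 to 2012 in fresh tissue. Fibroblast sums were 1392 to 15906 CPM in culture, 1081 to 11522 with EVs and 609 to 2418 in fresh tissue, with culture 2 and culture with EVs 2 the highest of their groups for 10 of 10 fibroblast markers. The endothelial sums were 470 to 633, 375 to 830 and 267 to 359 CPM. No gene of these 3 lists was at 0 in a whole group. Macrophage markers had 3 of 9 tested higher in both cultures, with 0 lower in culture (1 without culture 2) and 1 lower with EVs (2 without culture 3 or culture 4), and sums of 69.7 to 165, 62.8 to 124 and 37.6 to 72.8 CPM, with MARCO at 0 in all groups. Lymphocyte markers had 0 higher and 3 of 6 tested lower in both (5 lower in culture without culture 5, and 5 lower with EVs without culture 3, culture 5 or culture with EVs 5), with sums of 1.97 to 8.78, 2.91 to 9.94 and 10.5 to 32.5 CPM. Whether these marker differences reflect changed cell numbers, and their part in the early gene values, was not tested.

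The genes whose pattern over the 15 libraries was most like that of FOS were sought among 12366 genes with a symbol and a mean log2 CPM of at least 1. Likeness was the root mean square (RMS) difference of log2 CPM after each gene was centred on its own mean, where smaller is more alike. TAGAP, a GTPase-activating protein of T cells, was nearest at 0.40, followed by the receptor kinase ALK at 0.41, CORIN at 0.46, FREM2 at 0.47 and DUOXA1 at 0.48. TAGAP had 7.37 to 9.36 CPM in culture, 4.34 to 10.7 with EVs and 36.1 to 130 in fresh tissue, with fresh 4 the highest. Of the early genes, EGR1 was the most like FOS, at 0.60 and rank 28, and JUN came next at 0.68 and rank 129. EGR3 had rank 195, NR4A1 rank 427 and FOSB rank 884, so by this measure many other genes were as like FOS as these were. The measure counts the size of a change as well as its pattern. FOSB had the same highest and lowest fresh libraries as FOS but a larger log2 fold change in culture, -4.69 against -2.90.

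For FOSL1 the nearest genes were ANGPTL4 at 0.86, DUSP5 at 0.97, the cytokine LIF at 1.00, ADAMTS4 at 1.01 and the EGF receptor ligand HBEGF at 1.03. DUSP5, a nuclear ERK phosphatase, had 67.4 to 275 CPM in culture, 104 to 179 with EVs and 2.41 to 52.4 in fresh tissue. HBEGF had 24.5 to 73.7 CPM in culture, 35.0 to 49.3 with EVs and 1.19 to 19.0 in fresh tissue. All 5 of these genes had their highest fresh level in fresh 4, as FOSL1 did. They were picked for likeness over all libraries, fresh 4 included, so this follows in part from the choice and is a description. FOSL2 ranked 626 for likeness to FOSL1, at 2.08.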

How the data were processed

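The authors deposited raw counts for 38995 genes in 15 libraries, made from TruSeq Stranded mRNA libraries per the labels' protocols. Tools listed, without roles, in the submitters' processing notes are StringTie 2.1.3b, Bowtie2 2.3.4.1, Trimmomatic 0.38 and HISAT2 2.1.0. The sources used here do not give the build, counting program, strand setting or treatment of multi-mapped reads. All 38995 gene identifiers matched the RefSeq table of F.catus_Fca126_mat1.0, used for names and overlaps only.

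Low counts were filtered by filterByExpr at its defaults (minimum count 10, minimum total 15), which kept 18038 and left out 20957. With R 4.3.3 and edgeR 4.0.16, TMM-scaled counts were fitted by glmQLFit and tested by glmQLFTest (2-sided), with group as the only term, all 15 libraries and 12 residual degrees of freedom. Log2 fold changes are the first group over the second, SE is the absolute log2 fold change over the square root of F, and 95% intervals use the t distribution. Log2 CPM used a prior count of 2. The fit was tested on simulated data. DESeq2 1.42.0, other scalings and filters, a replicate block and left-out libraries were alternatives.

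The members, gene lists and tests were chosen with earlier results of these data known. The text names up to 3 called genes of smallest adjusted p per direction of each list other than the cell type lists, which are given as counts and sums, and the 5 genes most like FOS and FOSL1; a few others (NR4A2, EGR2, SRF, MAFF, ATF3, CSRNP1) were named after their values were seen, and some that the rule picks are not reported here. Same-numbered libraries deviated together in culture with EVs against culture (r of 0.18 to 0.60, 5 of 5 over 0.1) and in culture with EVs against fresh tissue (r of 0.24 to 0.36, 5 of 5), so replicate numbers were taken as pairing there, on the data alone. The main tests kept group as the only term, and the replicate number entered as a block only as an alternative. No 2 libraries held identical counts.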

Additional observations from a re-analysis of the deposited data

Results flagged for a closer look

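For 9 of the 30 combinations of gene and group, the highest of the 5 libraries lay further from its neighbours than Dixon's 95% critical value of 0.71 allows, on the CPM scale. Chance gives about 1 in 20 for normally distributed values only, which CPM need not be. On the log2 scale there were 4 of 30. Of the 9 on the CPM scale, those in fresh 4 were FOSB at 1100 CPM, FOSL1 at 12.4 CPM, FOSL2 at 185 CPM, EGR3 at 142 CPM and NR4A1 at 254 CPM. In culture 3 they were JUN at 411 CPM and IER2 at 78.8 CPM. The other 2 were FOSL1 in culture 5 at 26.3 CPM and EGR3 in culture 1 at 4.73 CPM. The combinations are not independent, since 5 of the 9 come from 1 library.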

How the results depend on the processing

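The number of early genes called was 7 to 9 in culture against fresh tissue, 8 to 9 in culture with EVs against fresh tissue and 0 in culture with EVs against culture, over DESeq2, relative log expression (RLE) and upper-quartile scaling, no filter, 1 CPM in 5 libraries, the replicate block and each library left out. With each library left out, 9039 to 11090 genes in all were called in culture against fresh tissue. With EVs against fresh tissue the range was 8833 to 11658. Both were highest without culture 3, where 9 early genes were called in each comparison. Across scalings, filters, tools and the block, 59 of the 59 gene values with an adjusted p kept their side of the threshold in culture and 55 of 59 did with EVs; the other 4 were IER2, called with DESeq2 (adjusted p = 0.0260), RLE (0.0400), upper-quartile scaling (0.0260) and the 1 CPM filter (0.0426). DESeq2 gave FOSL1 no adjusted p, with log2 fold changes of 3.00 in culture and 2.95 with EVs. With each library left out, 147 of 150 values kept their side in each fresh comparison, the exceptions being JUN and IER2 as given in the report. JUNB, never called, had 0.57 in culture without fresh 4, -0.14 without culture 3 and -0.12 without fresh 5. With the replicate number as a block, 8, 8 and 0 early genes and 10438, 10283 and 0 genes in all were called (without it 9786, 9549 and 0), and no early gene changed its call; FOSL1 had 4.75 ± 1.08 (adjusted p = 0.00259) in culture against fresh tissue, where 4 of 5 same-numbered pairs correlated over 0.1 (r of 0.03 to 0.34). Leaving out fresh 4 and culture 3 together, and recounting the other gene lists with libraries left out, were chosen after seeing the data. FOSL1 in fresh tissue is limited by depth, at 0 to 6 counts outside fresh 4.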
